A study of Mus musculus with 4 samples.

Results

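The immunoglobulin genes of the mouse were examined in RNA-seq libraries of bone marrow LSK cells. They are the genes of the deposited table whose names begin with Ighv, Ighd, Ighj, Ighg, Igha, Ighe, Igkv, Igkj, Igkc, Iglv, Iglj or Iglc, together with Ighm. They were chosen by name alone, and 195 of the 15255 genes of the table qualified. LSK cells carry Sca-1 and c-Kit and lack the markers of mature lineages, and they hold the haematopoietic stem and early progenitor cells. The wild-type group (WT) and the Afg3l2 knockout group (KO) had 2 libraries each, numbered 1 and 2. All were freshly isolated primary bone marrow cells washed in PBS. The labels do not give how the knockout was made, any promoter or Cre line, strain, age or sex, the antibodies of the lineage panel, or whether each library is a separate animal. What the p-values measure is thus the spread between these libraries, and the labels do not say whether that spread is technical.

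An antibody is built from heavy chains and from light chains of the kappa or lambda type. In developing B cells the RAG recombinase joins one V, one J and, in the heavy chain, one D segment into the exon of the variable domain, which is spliced to a constant region gene. IgM, made from Ighm, comes first, and class switching later replaces it with the constant genes of IgG, IgE or IgA. Loci that have not been joined can also be transcribed, so reads of a segment alone do not show that it was rearranged.

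The heavy chain locus held 99 of the 195 genes, on chromosome 12 of GRCm38 from 113254830 to 116000461. The kappa locus held 89, on chromosome 6 from 67609713 to 70726966, and the lambda locus 7, on chromosome 16 from 19061618 to 19260859. By class there were 87 heavy V, 1 heavy D, 4 heavy J and 7 heavy constant genes. The light chains had 83 kappa V, 5 kappa J and 1 kappa constant gene, and 3 lambda V, 1 lambda J and 3 lambda constant genes. GENCODE M21 annotates 395 such names, of which 133 are pseudogenes, and 0 of those pseudogenes were in the table. Ighe, the constant gene of IgE, was not among the genes analysed here. Of the 195 genes, 12 had no reads in at least 1 library and 8 averaged under 1 CPM, the deposited unit of reads scaled to the size of the library. All 195 entered the fit.

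The J segments are shown because they are short and carry the joint to the constant gene. The printed sequences of Ighj2, Igkj2 and Igkj5 are shorter than the annotated spans of these genes. Sequences are those of the GENCODE M21 transcripts on GRCm38, written 5′ to 3′. Heavy J segments lie on the minus strand of chromosome 12 between 113428514 and 113429833. Capitals mark TGG and GG, then 4 bases of any kind, then GG, which is the tryptophan and glycine motif at the start of the framework after the joint. The motif was picked with the sequences in view.
Ighj1: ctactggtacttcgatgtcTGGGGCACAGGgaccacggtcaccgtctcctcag
Ighj2: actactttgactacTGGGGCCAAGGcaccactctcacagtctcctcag
Ighj3: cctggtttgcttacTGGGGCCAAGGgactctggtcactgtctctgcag
Ighj4: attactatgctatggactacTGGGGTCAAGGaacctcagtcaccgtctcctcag
Kappa J segments lie on the plus strand of chromosome 6 between 70722562 and 70723927. Iglj1, the lambda J segment of the table, lies on the minus strand of chromosome 16 from 19063225 to 19063262. Capitals mark TTC and GG, then 4 bases of any kind, then GG, the phenylalanine and glycine motif of light chains.
Igkj1: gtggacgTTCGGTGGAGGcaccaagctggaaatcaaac
Igkj2: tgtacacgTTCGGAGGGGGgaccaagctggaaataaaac
Igkj3: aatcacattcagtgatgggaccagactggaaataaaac
Igkj4: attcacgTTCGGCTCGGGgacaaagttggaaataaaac
Igkj5: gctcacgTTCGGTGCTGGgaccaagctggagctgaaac
Iglj1: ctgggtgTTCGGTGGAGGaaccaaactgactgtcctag
The heavy motif was found in 4 of 4 annotated heavy J segments (100%). The light chain motif was found in 4 of 5 kappa segments (80%) and in 4 of 5 lambda segments (80%). On the reverse strand 0 of the segments matched. Igkj3 was the measured J segment without a match.

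Reads assigned to genes numbered 16522338 to 17271936 per library. Afg3l2, the targeted gene, fell from 79.6 and 86.0 CPM in the WT libraries to 36.7 and 30.1 CPM in the KO libraries (limma adjusted p = 0.0115). The LSK marker Kit stood between 223 and 341 CPM and Ly6a, which encodes Sca-1, between 57.1 and 95.4 CPM. Libraries with the same number resembled each other in sex-linked RNA: Xist, the RNA of the inactive X chromosome, was at 889 and 1004 CPM in the libraries numbered 2 and at 0.113 and 15.7 CPM in those numbered 1. Ddx3y, on the Y chromosome, was at 83.4 and 72.4 CPM in the libraries numbered 1 and at 5.04 and 3.50 CPM in those numbered 2. Each group therefore contained both patterns, so its 2 libraries were not repeats of 1 RNA sample, and values within a number are given beside the totals.

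Immunoglobulin RNA was lower in the KO libraries in total, by an amount that differed between chains and classes. The 195 genes together took 1.86% and 2.91% of all reads in WT replicates 1 and 2, and 1.31% and 1.77% in KO replicates 1 and 2. Their summed level was 18140 and 29871 CPM in WT and 13185 and 17643 CPM in KO, a ratio of group means of 0.642. Both KO libraries were below both WT libraries, though KO replicate 2 lay close to WT replicate 1. In bulk RNA, fewer cells of a type and less RNA per cell cannot be told apart. The ratio was 0.727 between the libraries numbered 1 and 0.591 between those numbered 2. A sum over genes carries no test here.

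Heavy chain genes summed to 10922 and 18401 CPM in WT and to 8039 and 10921 CPM in KO, a ratio of 0.647. Kappa chain genes summed to 6671 and 10721 CPM in WT and to 4783 and 6421 CPM in KO, a ratio of 0.644. Lambda chain genes summed to 547 and 749 CPM in WT and to 363 and 301 CPM in KO, a ratio of 0.513. In each chain the KO libraries were the lower pair, with the highest level in WT replicate 2. For heavy this was barely so, as KO replicate 2 at 10921 CPM was level with WT replicate 1 at 10922 CPM. For heavy and kappa the WT libraries differed from each other by more than the group means did. Within the libraries numbered 1 and 2 the ratios were 0.736 and 0.594 for heavy, 0.717 and 0.599 for kappa, and 0.664 and 0.402 for lambda.

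**Figure D1:**
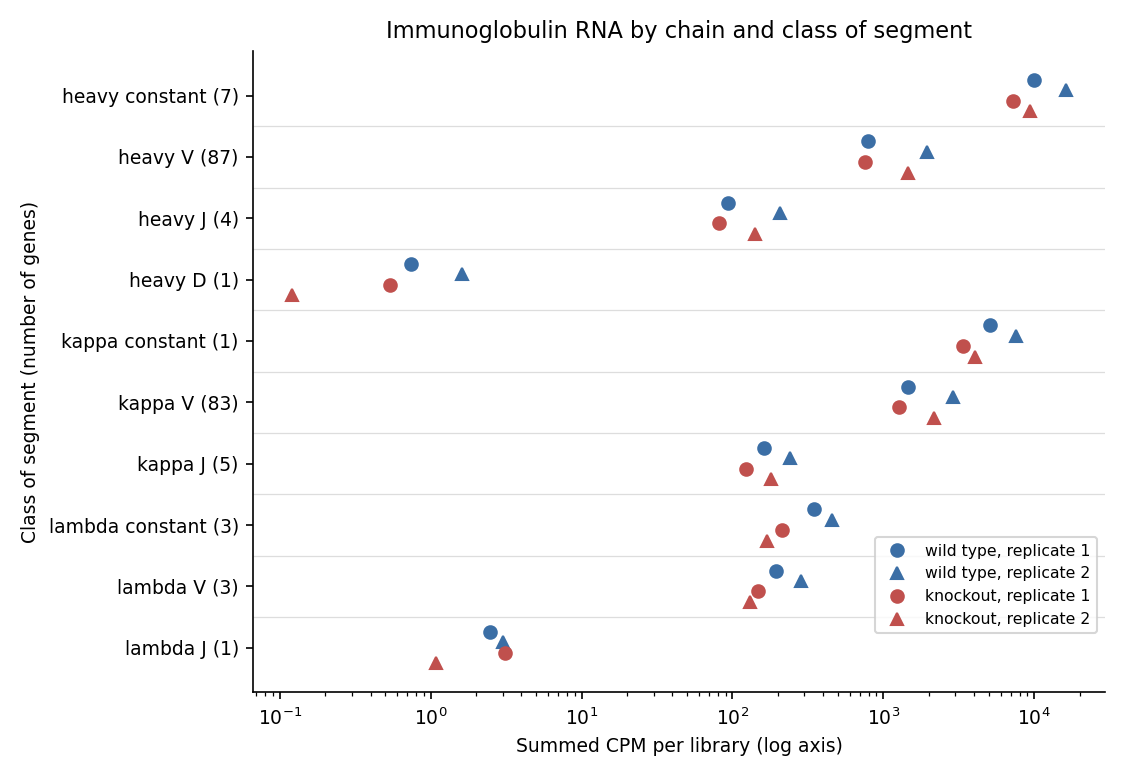
Summed CPM of each class of segment on a log axis, with 1 point per library; circles are replicates 1, triangles replicates 2, blue wild type and red knockout. The KO points lie below the WT points for the constant genes of all 3 chains, while the 2 groups overlap for heavy V, kappa V, heavy J, kappa J and lambda J.

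The constant genes carried most of this RNA. Heavy constant genes summed to 10039 and 16252 CPM in WT and 7203 and 9314 CPM in KO, and Igkc, the single kappa constant gene, stood at 5056 and 7585 CPM in WT and 3386 and 4067 CPM in KO. The sums of the heavy and of the kappa V segments overlapped between the groups. Heavy V segments summed to 789 and 1942 CPM in WT and to 754 and 1467 CPM in KO. Kappa V segments summed to 1453 and 2897 CPM in WT and to 1274 and 2173 CPM in KO. For both kinds of V segment the libraries numbered 2 were above those numbered 1 whatever the genotype. Within the libraries numbered 1 and 2 the ratio of KO to WT was 0.956 and 0.755 for heavy V and 0.877 and 0.750 for kappa V, so KO was the lower in both numbers. For heavy constant genes the ratios were 0.718 and 0.573, and for Igkc 0.670 and 0.536.

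Ighm, the constant gene of IgM, stood at 5510 and 6938 CPM in WT and at 5287 and 5931 CPM in KO. The groups overlapped, and the log2 fold change of -0.14 ± 0.17 (SE) did not pass (limma adjusted p = 0.679). The 6 other heavy constant genes summed to 4529 and 9315 CPM in WT and to 1916 and 3382 CPM in KO, a ratio of 0.383, or 0.423 and 0.363 within the libraries numbered 1 and 2. Set per kilobase of exon, the scale on which different genes can be compared, Ighm took 61.6% and 48.2% of heavy constant RNA in WT and 77.9% and 70.2% in KO. Both KO shares were above both WT shares, with WT replicate 2 the lowest. No test was made of these shares, which depend on one another within a library.

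Ighg1, the constant gene of IgG1, stood at 259 and 397 CPM in WT and at 127 and 147 CPM in KO. It was lower in both KO libraries and fell by the test, with means of 328 ± 97.7 and 137 ± 14.0 CPM (SD, n = 2 libraries each). Its log2 fold change was -1.23 ± 0.21 (SE; limma adjusted p = 0.0348, edgeR quasi-likelihood adjusted p = 0.0468). Ighg1 lies on chromosome 12 from 113325240 to 113330523. Of the 7 heavy constant genes it was the 1 that passed in limma with all libraries.

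Ighg2b, of IgG2b, stood at 1354 and 2540 CPM in WT and at 320 and 706 CPM in KO. Its groups did not overlap, and with a log2 fold change of -1.96 ± 0.56 (SE) it did not pass (limma adjusted p = 0.191). Igha, the constant gene of the mucosal antibody IgA, stood at 2572 and 5053 CPM in WT and at 1234 and 2306 CPM in KO, with KO replicate 2 close to WT replicate 1 and an adjusted p of 0.309 in limma. Ighg2c was at 315 and 1228 CPM in WT and at 197 and 175 CPM in KO (limma adjusted p = 0.386), with WT replicate 2 far above the other libraries. It passed as lower without WT replicate 1 (limma adjusted p = 3.07e-05) and without WT replicate 2 (limma adjusted p = 0.0276), when the spread between the WT libraries no longer entered. The authors' deposited table called Ighg1, Ighg2b, Igha and Ighd lower.

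Ighg3, of IgG3, stood at 20.7 and 85.9 CPM in WT and at 37.1 and 42.4 CPM in KO. The KO libraries lay between the WT libraries, and the log2 fold change was -0.09 (limma adjusted p = 0.963). Without WT replicate 2 its log2 fold change was 0.91 and passed as higher (limma adjusted p = 0.0309). Without WT replicate 1 it was -1.10 and passed as lower (limma adjusted p = 0.0106). Ighd, the constant gene of IgD, which naive B cells make beside IgM, was the lowest heavy constant gene per kilobase. It stood at 8.15 and 10.4 CPM in WT and at 1.19 and 5.61 CPM in KO (limma adjusted p = 0.198).

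**Figure D2:**
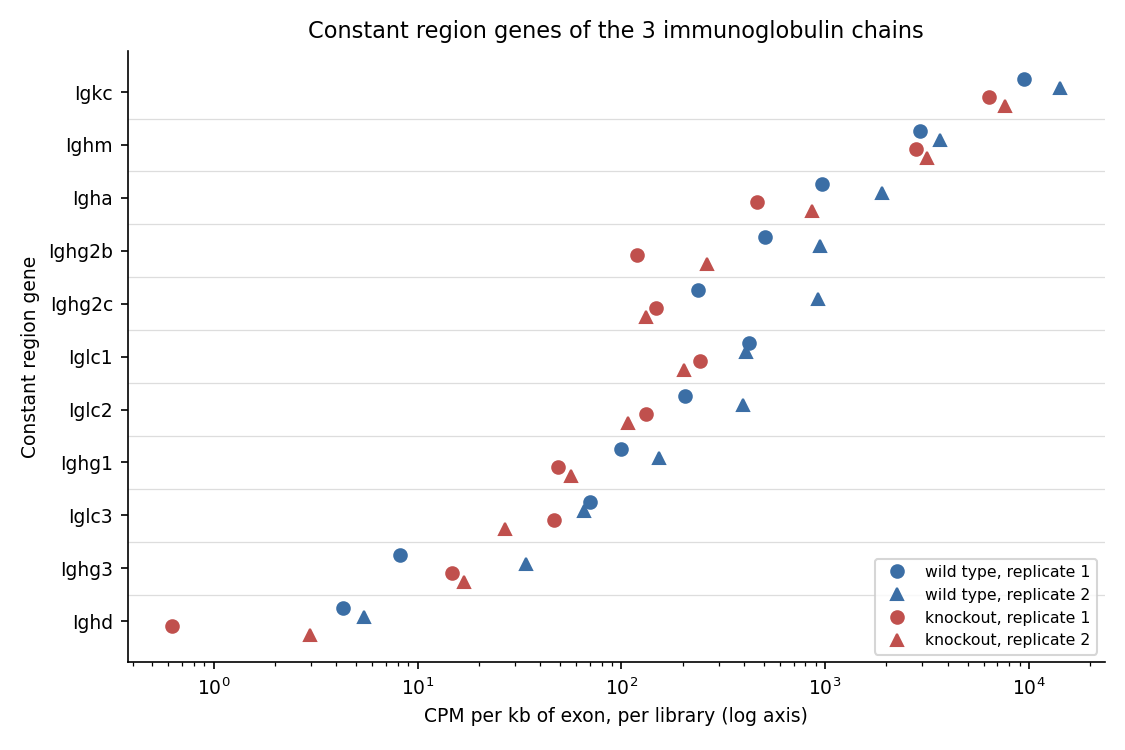
CPM per kilobase of exon for the 11 constant genes on a log axis, ordered by their mean, with 1 point per library; circles are replicates 1, triangles replicates 2, blue wild type and red knockout. Igkc and Ighm lie highest. The groups overlap for Ighm and Ighg3 and are apart for the other 9 genes, against 54.1% of all genes.

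Kappa RNA far exceeded lambda RNA in every library. Igkc took 93.2% and 94.2% of light chain constant RNA per kilobase in WT and 93.8% and 95.8% in KO, leaving 6.85% and 5.77% to the lambda constant genes in WT and 6.22% and 4.23% in KO. These shares overlapped between the groups. The log2 fold change of Igkc was -0.74 ± 0.22 (SE), with its KO libraries below its WT libraries (limma adjusted p = 0.126). The authors' deposited table called Igkc lower, with an FDR of 0.00469.

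Iglc1, a lambda constant gene on chromosome 16 from 19061618 to 19062071, had the tightest WT pair of the lambda genes. It stood at 192 and 186 CPM in WT and at 110 and 92.3 CPM in KO, and fell with a log2 fold change of -0.90 ± 0.14 (SE; limma adjusted p = 0.0253, edgeR adjusted p = 0.0326). Iglc2 stood at 126 and 243 CPM in WT and at 80.5 and 65.7 CPM in KO (limma adjusted p = 0.133). Iglc3 stood at 31.7 and 29.8 CPM in WT and at 21.2 and 12.1 CPM in KO (limma adjusted p = 0.128). All 3 genes were below WT in both KO libraries, and Iglc1 was the one that passed. Of all 15255 genes, 26.9% had both KO libraries below both WT libraries.

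The 3 lambda V segments lay in the same direction. Iglv1, the main lambda V segment, stood at 135 and 156 CPM in WT and at 102 and 87.9 CPM in KO, with a log2 fold change of -0.61 ± 0.15 (SE; limma adjusted p = 0.0853). Iglv2 stood at 52.5 and 95.1 CPM in WT and at 43.3 and 37.2 CPM in KO. Iglv3 stood at 7.07 and 35.7 CPM in WT and at 2.44 and 4.77 CPM in KO. In each of the 3 the KO libraries were below the WT libraries, against 26.9% of all genes. None of the 3 passed limma, with 2 at an unadjusted p under 0.05 and 0 called by edgeR. Over all 15255 genes 3171 had an unadjusted limma p under 0.05. Iglj1 was at 2.49 and 3.03 CPM in WT and at 3.09 and 1.09 CPM in KO, so that its groups overlapped.

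The J segments, whose sequences stand above, did not pass in limma: 0 of 10 were called, with 1 at an unadjusted p under 0.05 and 0 called by edgeR. At that unadjusted cut stood 3171 of all 15255 genes. Igkj5 came nearest. It stood at 33.7 and 50.4 CPM in WT and at 17.0 and 20.8 CPM in KO, with a log2 fold change of -1.09 ± 0.23 (SE; limma adjusted p = 0.0575, edgeR adjusted p = 0.0662). Both its KO libraries were below both WT libraries. Whether it passed with fewer libraries depended on the library left out.

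Of the kappa J segments, Igkj5 took 19.8% and 20.2% of kappa J RNA per kilobase in WT and 13.2% and 10.95% in KO. Igkj4 took 14.3% and 14.0% in WT and 25.5% and 19.3% in KO, with levels of 22.1 and 31.7 CPM in WT and 29.7 and 33.2 CPM in KO. The 2 segments thus took shares that did not overlap between the groups, in opposite directions. The shares of Igkj2, 27.4% and 27.5% in WT and 34.4% and 30.6% in KO, were also apart, as were those of Igkj3, given below. Shares within a library depend on one another, and no test was made of them. Igkj1 was at 58.7 and 85.2 CPM in WT and at 30.0 and 66.0 CPM in KO, and Igkj2 at 47.8 and 70.4 CPM in WT and at 45.3 and 59.6 CPM in KO. In CPM both overlapped between the groups, and their log2 fold changes were -0.65 and -0.16.

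Igkj3, the segment without the light chain motif, had the lowest mean level of the 10 J segments. It stood at 0.453 and 1.60 CPM in WT and at 1.25 and 1.39 CPM in KO, which was 0.294% and 0.708% of kappa J RNA per kilobase in WT and 1.07% and 0.807% in KO. The other 4 kappa J segments each took 10.95% or more of it in every library. The match between the missing letters and the low level is a description of 1 segment.

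The 4 heavy J segments overlapped between the groups. Ighj1 stood at 32.1 and 54.6 CPM in WT and at 18.2 and 33.1 CPM in KO, Ighj2 at 30.7 and 69.8 CPM and at 28.4 and 55.6 CPM, and Ighj3 at 14.4 and 29.5 CPM and at 7.36 and 15.7 CPM. Ighj4 stood at 15.8 and 51.2 CPM in WT and at 28.0 and 36.1 CPM in KO. In all 4 the library numbered 2 was above the library numbered 1 in both groups. Their log2 fold changes ran from -0.87 for Ighj3 to 0.14 for Ighj4, with limma adjusted p-values of 0.318 or more, and that of Ighj4 changed sign with edgeR and DESeq2. Whether Ighj4 passed with fewer libraries depended on the library left out.

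Ighd1-1 was the 1 D segment of the table, out of 20 annotated. It is the shortest of the genes, shown whole, and it lies on chromosome 12 from 113482170 to 113482192 on the minus strand.
Ighd1-1: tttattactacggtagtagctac
It had 13 and 27 reads in WT and 9 and 2 reads in KO, or 0.736 and 1.60 CPM and 0.535 and 0.121 CPM. Both KO libraries were below both WT libraries, and the difference did not pass (limma adjusted p = 0.293).

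V segments encode most of the variable domain of a chain, and each B cell uses 1 of them per chain. Of the 87 heavy V segments, 83 to 87 had reads in each library, and of the 83 kappa V segments 79 to 82 did. The effective number of segments, the inverse of the sum of squared read shares, was 28.0 and 28.8 for heavy V in WT and 18.6 and 25.4 in KO. For kappa V it was 20.8 and 25.4 in WT and 14.9 and 19.5 in KO. KO replicate 1 had the fewest effective segments in both chains, and it also had the fewest V reads, 12691 heavy and 21457 kappa. The part of read depth in this was not tested.

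Of the 5 heavy V segments with the most reads in each library, Ighv11-2 and Ighv7-1 were among the 5 in all 4 libraries, and 13 segments were among them in at least 1. For kappa these were Igkv14-126 and Igkv15-103, of 10 segments. Ighv11-2 led the heavy V segments in WT replicate 2 with 11.2% of heavy V reads (95% exact binomial interval 10.9% to 11.6%, counting error only). It also led in KO replicates 1 and 2, with 12.1% (11.6% to 12.7%) and 14.1% (13.7% to 14.5%). In WT replicate 1 Ighv7-1 led with 10.6% (10.1% to 11.1%), ahead of Ighv11-2. For kappa, Igkv14-126 led with 11.7% (11.4% to 12.0%) in WT replicate 2 and with 14.6% (14.1% to 15.1%) and 16.8% (16.4% to 17.2%) in KO. Igkv15-103 led with 13.3% (12.9% to 13.7%) in WT replicate 1. Ighv11-2 and Igkv14-126 are known as a pair from antibodies of B-1 cells, a self-renewing B cell type, that bind phosphatidylcholine.

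The last 240 coding bases of these 2 segments are shown as the most used of their chains, from GENCODE M21 on GRCm38. Capitals mark the last in-frame TGT, the codon of the conserved cysteine at the joint. Ighv11-2 is at chr12:114048241-114048812 on the minus strand and Igkv14-126 at chr6:67896172-67896642 on the plus strand.
Ighv11-2: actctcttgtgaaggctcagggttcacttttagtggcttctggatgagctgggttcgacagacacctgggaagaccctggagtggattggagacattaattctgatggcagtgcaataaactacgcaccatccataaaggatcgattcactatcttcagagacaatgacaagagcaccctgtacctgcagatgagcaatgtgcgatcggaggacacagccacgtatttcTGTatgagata
Igkv14-126: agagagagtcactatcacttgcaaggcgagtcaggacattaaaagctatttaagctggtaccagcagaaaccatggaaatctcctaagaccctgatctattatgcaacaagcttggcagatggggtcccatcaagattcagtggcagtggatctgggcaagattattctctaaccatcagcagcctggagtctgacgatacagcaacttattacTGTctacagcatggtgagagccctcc
The whole coding sequence of each is 353 bases long, so bases 114 to 353 are printed, with 8 bases after the cysteine codon in Ighv11-2 and 23 in Igkv14-126.

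Ighv11-2 stood at 59.8 and 218 CPM in WT and at 91.5 and 207 CPM in KO, with a log2 fold change of 0.27 ± 0.94 (SE; limma adjusted p = 0.906). Igkv14-126 stood at 146 and 339 CPM in WT and at 186 and 364 CPM in KO, with a log2 fold change of 0.23 ± 0.62 (SE; limma adjusted p = 0.874). For both segments the libraries numbered 2 were high and those numbered 1 low, and the groups overlapped. As a share of the V reads of its chain, each was higher in both KO libraries than in both WT libraries. Ighv11-2 has a near copy, Ighv11-1, which was not among the genes analysed here and has 98.9% identical coding bases, so reads of the pair may be split or lost.

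**Figure D3:**
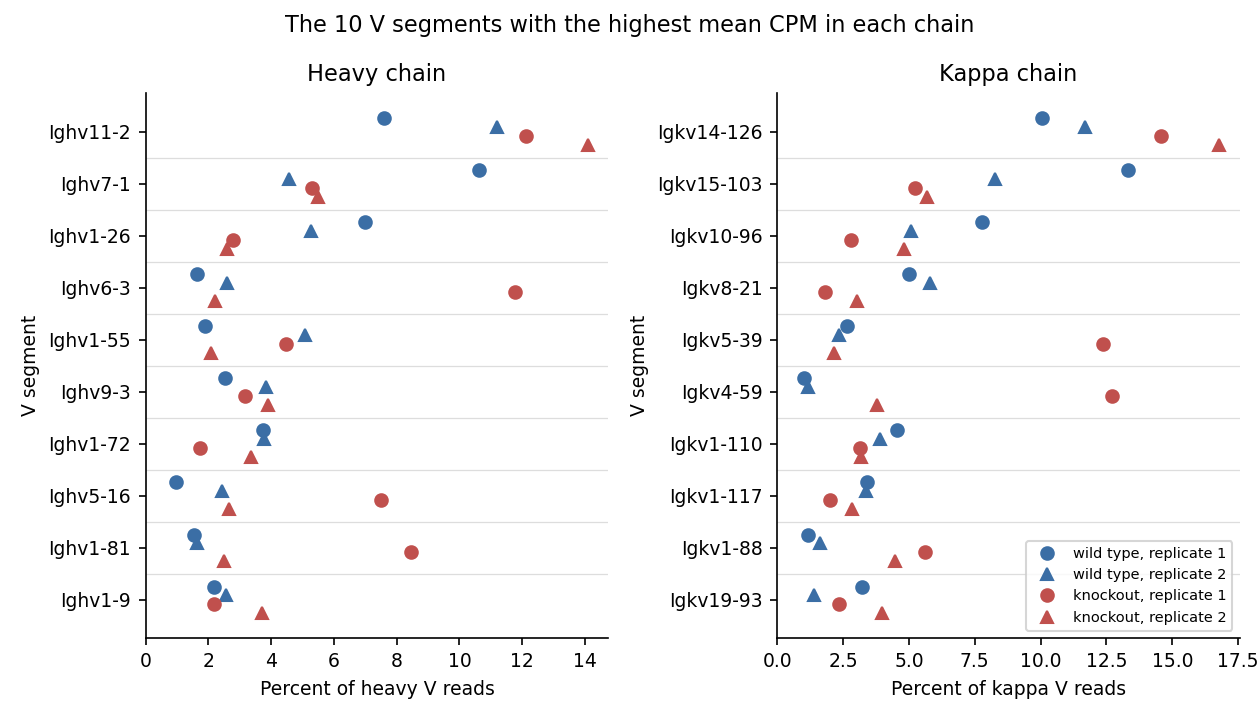
Percent of a chain's V reads taken by the 10 heavy and the 10 kappa V segments with the highest mean CPM, with 1 point per library; circles are replicates 1, triangles replicates 2, blue wild type and red knockout. Ighv11-2 and Igkv14-126 lie highest in 3 of the 4 libraries, and KO replicate 1 stands apart at Ighv6-3, Ighv5-16, Ighv1-81, Igkv5-39 and Igkv4-59.

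Other abundant V segments differed widely between libraries. Ighv6-3 was at 13.0 and 50.4 CPM in WT and at 88.6 and 32.4 CPM in KO. Igkv5-39 was at 38.7 and 67.5 CPM in WT and at 157 and 46.9 CPM in KO. In both, KO replicate 1 was the highest library and KO replicate 2 lay between the WT libraries, so the KO libraries differed more than the groups did. Ighv1-55 was at 14.9 and 98.5 CPM in WT and at 33.7 and 30.4 CPM in KO; without WT replicate 2 it passed as higher (log2 fold change 1.06, limma adjusted p = 0.0219), and without WT replicate 1 it passed as lower (log2 fold change -1.59, limma adjusted p = 0.00128). Ighv5-16 stood at 7.70 and 47.4 CPM in WT and at 56.5 and 38.8 CPM in KO. Its log2 fold change of 1.22 ± 1.09 (SE) did not pass in limma with all libraries. Igkv4-59 stood at 14.9 and 33.5 CPM in WT and at 162 and 82.3 CPM in KO, with both KO libraries above both WT libraries, a log2 fold change of 2.32 ± 0.56 (SE) and a limma adjusted p of 0.154.

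The other abundant segments showed no common direction. Ighv7-1 was at 83.6 and 88.9 CPM in WT and at 40.0 and 80.4 CPM in KO, and Ighv1-26 at 55.2 and 103 CPM in WT and at 21.1 and 38.1 CPM in KO. Both were lower in both KO libraries and did not pass (limma adjusted p = 0.373 and 0.179). With a replicate term Ighv1-26 passed as lower (limma adjusted p = 0.00102), and the authors' deposited table gave it an FDR of 1.74e-10. Igkv15-103 was at 193 and 239 CPM in WT and at 66.9 and 124 CPM in KO, and Igkv10-96 at 113 and 147 CPM in WT and at 35.6 and 104 CPM in KO. Igkv8-21, at 72.8 and 168 CPM in WT, was at 23.2 and 65.8 CPM in KO. These 3 kappa segments were also below WT in both KO libraries without passing (limma adjusted p = 0.120, 0.441 and 0.414). In the opposite direction, Igkv1-88 was at 16.9 and 47.5 CPM in WT and at 71.3 and 97.6 CPM in KO, and Ighv1-81 at 12.2 and 31.6 CPM in WT and at 63.7 and 36.7 CPM in KO. Neither passed with all libraries (limma adjusted p = 0.264 and 0.308), and whether they passed with fewer depended on the library left out. Ighv9-3, Ighv1-72, Ighv1-9, Igkv1-110, Igkv1-117 and Igkv19-93, the remaining 6 of the most abundant, overlapped between the groups, with log2 fold changes from -0.84 for Ighv1-72 to 0.22 for Igkv19-93. Besides Ighv1-26, the authors' deposited table called Igkv15-103, Igkv8-21, Ighv1-72, Igkv1-110 and Igkv1-117 lower and Igkv1-88 higher.

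Across all 15255 genes 369 passed in limma, 2.42%, with 128 lower (0.839%) and 241 higher (1.58%). Of the 195 immunoglobulin genes 10 passed, 5.13%, with 10 lower and 0 higher. EdgeR's quasi-likelihood test, which called 287 genes (1.88%), called 7 of the 195, all of them among the 10, and with its default dispersion 2, Igkv4-80 and Iglc1. The 10 genes were 5 heavy V, 3 kappa V, 1 heavy constant and 1 lambda constant gene. The median log2 fold change of the 195 genes was -0.63, against -0.02 over all genes, and 141 of the 195 were below 0. Groups did not overlap for 69 of the 195 genes (35.4%), 55 lower (28.2%) and 14 higher, against 54.1% of all genes, 26.9% lower and 27.2% higher. The share of immunoglobulin genes with both KO libraries lower was thus near the background, while non-overlap in the other direction was scarcer.

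Of the 5 heavy V segments that fell, Ighv5-12 had the largest fold. It stood at 12.1 and 20.6 CPM in WT and at 1.43 and 0.302 CPM in KO, with a log2 fold change of -3.24 ± 0.42 (SE; limma adjusted p = 0.0132, edgeR adjusted p = 0.0478). Ighv1-39 stood at 17.8 and 43.0 CPM in WT and at 2.08 and 4.34 CPM in KO (limma adjusted p = 0.0379), and Ighv14-4 at 12.8 and 25.2 CPM in WT and at 3.62 and 4.04 CPM in KO (limma adjusted p = 0.0339). Ighv1-19 stood at 16.8 and 10.3 CPM in WT and at 2.14 and 3.38 CPM in KO (limma adjusted p = 0.0360), and Ighv8-8 at 16.2 and 24.7 CPM in WT and at 4.63 and 6.76 CPM in KO (limma adjusted p = 0.0378). Both KO libraries were below both WT libraries for each of the 5, and all 5 averaged between 13.5 and 30.4 CPM in WT. Ighv1-39 did not pass in edgeR (adjusted p = 0.0667).

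Of the kappa V segments, Igkv10-94 stood at 45.5 and 44.9 CPM in WT and at 3.68 and 10.1 CPM in KO. It fell with a log2 fold change of -2.68 ± 0.40 (SE; limma adjusted p = 0.0307), and missed the threshold in edgeR (adjusted p = 0.0704). Igkv4-80 stood at 10.02 and 22.2 CPM in WT and at 1.31 and 1.45 CPM in KO, and fell with a log2 fold change of -2.75 ± 0.40 (SE; limma adjusted p = 0.0179, edgeR adjusted p = 0.0228). Igkv4-79 stood at 6.85 and 4.39 CPM in WT and at 0.772 and 0.965 CPM in KO (limma adjusted p = 0.0408, edgeR adjusted p = 0.0510). For all 3 both KO libraries were below both WT libraries.

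Igkv4-79 and Igkv4-80 lie close together on the minus strand of chromosome 6, at chr6:69042972-69043505 and chr6:69016558-69017080. Their last 240 coding bases, from GENCODE M21 on GRCm38, are shown because both fell, and neither shares an exact stretch of 150 bases, the read length, with another annotated immunoglobulin gene. Of their 100-base stretches 16.6% in Igkv4-79 and 6.83% in Igkv4-80 are shared, and of their 50-base stretches 55.3% and 22.4%. They were chosen after their values were seen. Bases 119 to 358 of Igkv4-79 and 109 to 348 of Igkv4-80 are printed, and capitals mark bases that differ between them or have no partner in the alignment.
Igkv4-79: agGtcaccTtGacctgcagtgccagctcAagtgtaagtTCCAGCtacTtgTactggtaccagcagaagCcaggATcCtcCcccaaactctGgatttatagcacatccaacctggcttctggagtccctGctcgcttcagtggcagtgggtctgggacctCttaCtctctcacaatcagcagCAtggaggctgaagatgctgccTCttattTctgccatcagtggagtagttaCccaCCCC
Igkv4-80: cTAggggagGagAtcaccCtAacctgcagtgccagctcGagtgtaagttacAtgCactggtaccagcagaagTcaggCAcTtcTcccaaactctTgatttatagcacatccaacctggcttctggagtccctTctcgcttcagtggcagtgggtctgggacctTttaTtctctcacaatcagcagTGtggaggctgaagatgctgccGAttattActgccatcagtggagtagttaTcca
Over their whole coding sequences they had 25 mismatches and 10 unpaired bases over 358 aligned positions, an identity of 90.2%. Another segment of the family, Igkv4-59, is 91.2% identical to Igkv4-80 and lay above WT in both KO libraries, as given above. Over the 21 Igkv4 segments the log2 fold changes ran from -2.75 to 2.32, with a median of -1.07 and 2 called lower.

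Leaving out 1 library at a time, all 10 genes stayed below 0 in each of the 4 fits, with log2 fold changes from -3.69 for Ighv5-12 to -0.77 for Iglc1. Most of the 10 still passed when a WT library was left out, and most did not when a KO library was. Each such fit leaves 1 library in a group, and its calls among the 195 genes were not set against the share over all genes. The median log2 fold change of the 195 genes was -0.99 without WT replicate 1, -0.04 without WT replicate 2, -0.12 without KO replicate 1 and -1.02 without KO replicate 2.

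The authors' deposited table, whose test carries the replicate number as a term, called 62 of the 195 genes at an FDR under 0.05, 31.8%, against 11.5% of all genes. The authors' deposited table gave 53 as lower (27.2%, against 5.47% of all genes) and 9 as higher (against 6.04%). Limma with the same term called 51 of the 195 (26.2%, against 11.7% of all genes), 44 lower (22.6%, against 5.02%) and 7 higher (against 6.64%), and with 2 numbers in each group that fit leaves 1 residual degree of freedom. Of the 51, 34 lower and 7 higher did not pass without the term. Ighg2b, Igha, Ighd, Igkc, Iglc3, Iglv1, Iglv3, Ighj1, Ighj3, Igkj1 and Igkj5 were among the 34, with limma adjusted p-values from 0.000116 for Ighg2b to 0.0453 for Ighd. Of the 53 genes lower in the authors' deposited table, 23 were kappa V and 17 heavy V segments. Among the 9 higher, the authors' deposited table gave Ighv1-69 a log2 fold change of 2.05 and Igkv9-120 one of 1.15. Ighv1-69 stood at 4.30 and 6.17 CPM in WT and at 14.1 and 31.8 CPM in KO, and Igkv9-120 at 16.5 and 29.0 CPM in WT and at 32.8 and 71.5 CPM in KO. In both the KO libraries were above the WT libraries, and in limma they did not pass (adjusted p = 0.0606 and 0.280).

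Igkv3-9 was also called higher in the authors' deposited table. It had 0 reads in both WT libraries and 32 and 15 reads in the KO libraries, or 1.90 and 0.905 CPM. Set against a floor of 3 reads in each WT library, its mean KO level of 1.40 CPM was 8.07-fold higher. The KO mean was taken as measured, so the ratio is not a lower bound. With 0 WT reads only a rise could be seen, and Igkv3-9 did not pass in limma (adjusted p = 0.0980). The reverse was seen for Igkv4-62, with 0.117% and 0.041% of kappa V reads in WT and 0% in both KO libraries. It did not pass in limma, and the authors' deposited table called it lower (log2 fold change -7.62, FDR 4.07e-06). Ighv12-3, a heavy V segment, stood at 2.72 and 2.79 CPM in WT and at 5.70 and 10.6 CPM in KO (limma adjusted p = 0.122). Ighv9-4 stood at 0.792 and 2.67 CPM in WT and at 4.93 and 5.43 CPM in KO (limma adjusted p = 0.144), and Igkv16-104 at 19.6 and 46.2 CPM in WT and at 40.3 and 75.7 CPM in KO (limma adjusted p = 0.469). The groups were apart for Ighv12-3 and Ighv9-4 and overlapped for Igkv16-104.

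Replicate libraries differed more in immunoglobulin genes than in the transcriptome. The median absolute log2 difference between the 2 WT libraries was 1.03 over the 195 genes and 0.249 over all genes, and between the 2 KO libraries 0.971 and 0.217. In WT 51.8% of the 195 genes differed by more than 2-fold between replicates, against 5.89% of all genes, and in KO 49.2%, against 2.83%. The library numbered 2 was the higher in both groups for 122 of the 195 genes (62.6%), against 30.4% of all genes, and the library numbered 1 for 7. Between WT and KO libraries of the same number, 101 of the 195 genes were lower in KO in both comparisons (51.8%, against 36.3% of all genes) and 27 were higher in both (13.8%, against 34.6%). Sex-linked RNA moved with the replicate number, as given above, and its part in the difference was not tested.

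**Figure D4:**
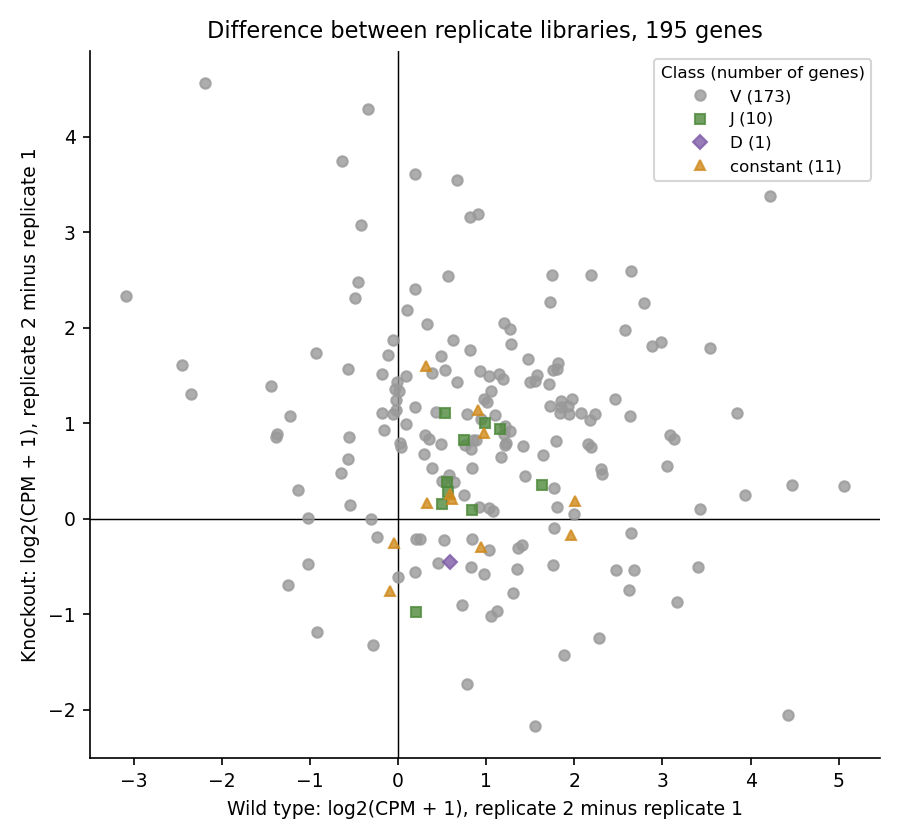
Difference between replicate 2 and replicate 1 in log2(CPM + 1) for each of the 195 genes, in wild type (x axis) and knockout (y axis), with symbols by class of segment. Most points, 122 of 195, lie at the upper right, where the library numbered 2 was higher in both groups.

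The profile of V segment levels was compared between libraries. Over the 87 heavy V segments Pearson's r of log2 values was 0.633 between the WT libraries and 0.764 between the KO libraries, and 0.495 to 0.654 between groups. Over the 83 kappa V segments it was 0.718 within WT and 0.796 within KO, and 0.692 to 0.780 between groups. These are correlations across segments that share a library, so they are descriptions and carry no test.

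Position along the locus gave no common order. Among heavy V segments, the 29 nearest to the J segments had a median log2 fold change of -0.59, the 29 in the middle -0.19 and the 29 farthest -0.55, with 2, 2 and 1 called lower. Among kappa V segments the medians were -0.66 for the 28 nearest, -0.93 for the 27 in the middle and -0.58 for the 28 farthest, with 0, 2 and 1 called lower. The 28 farthest kappa V segments took the most kappa V reads in every library, 59.4% and 47.55% in WT and 46.2% and 53.5% in KO. The heavy V segments nearest to J took 43.9% and 41.4% of heavy V reads in WT and 37.9% and 49.95% in KO. Neither set of shares separated the groups.

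**Figure D5:**
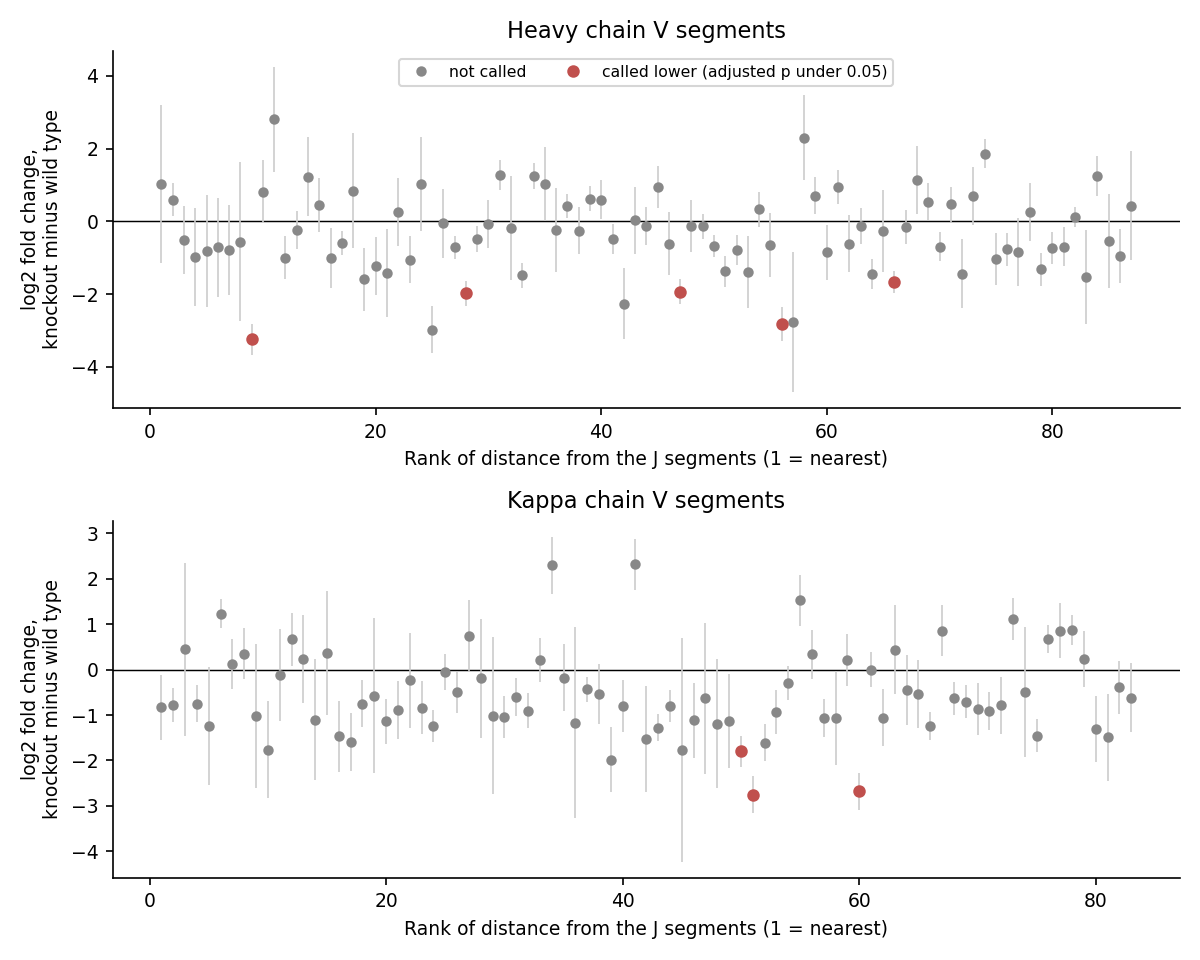
Log2 fold change, knockout minus wild type, of the 87 heavy and the 83 kappa V segments in order of their distance from the J segments (rank 1 is the nearest); bars are the SE of the fit and red points passed limma at an adjusted p under 0.05. The 5 heavy and 3 kappa segments that fell are spread along the order.

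By family, the 45 Ighv1 segments, the largest heavy family, had a median log2 fold change of -0.27 and 2 called lower. The 4 Ighv14 segments had a median of -1.24 and 1 called lower, and the 3 Ighv8 segments a median of -1.04 and 1 called lower. The 3 Igkv9 segments lay at 0.68 to 1.11, and did not pass; KO was higher in both libraries in 2 of them. The medians of the 8-member kappa families Igkv3, Igkv6 and Igkv8 were -0.31, -0.70 and -0.82, and no member of these families passed.

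Of 13 measured genes of antibody-secreting cells, which make and secrete immunoglobulin, 2 fell and 0 rose, with a median log2 fold change of -0.30. With a replicate term limma called 4 of them lower and 0 higher, against 5.02% and 6.64% of all genes. Jchain, which joins IgM and IgA into polymers, stood at 1590 and 2273 CPM in WT and at 870 and 1007 CPM in KO (log2 fold change -1.02 ± 0.20 SE, limma adjusted p = 0.0441, edgeR adjusted p = 0.0613). Sdc1, the plasma cell surface proteoglycan CD138, stood at 38.7 and 55.5 CPM in WT and at 15.7 and 18.1 CPM in KO (log2 fold change -1.41 ± 0.22 SE, limma adjusted p = 0.0219). For both genes the KO libraries were below the WT libraries. Xbp1, the transcription factor of the secretory programme, stood at 153 and 263 CPM in WT and at 164 and 183 CPM in KO, and overlapped. Neither Txndc5, at -0.08 on the log2 scale, nor Tnfrsf13b, at -0.76, passed without a replicate term. With that term Tnfrsf13b was called lower (limma adjusted p = 0.0159) and Txndc5 was not.

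B lineage genes moved with the replicate number as V segments did. The 16 measured genes summed to 330 and 880 CPM in WT and to 105 and 537 CPM in KO, and 16 of 16 log2 fold changes were below 0, with a median of -1.11. By limma 0 passed, with 1 at an unadjusted p under 0.05 (3171 of all 15255 genes were), and by edgeR 0. With a replicate term limma called 4 of the 16 lower and 0 higher, against 5.02% and 6.64% of all genes. Cd79a, a signalling chain of the B cell receptor, stood at 47.9 and 137 CPM in WT and at 15.8 and 81.4 CPM in KO, and overlapped. Pax5, which fixes B cell identity, stood at 34.6 and 95.5 CPM in WT and at 8.73 and 57.0 CPM in KO, and Vpreb1, of the surrogate light chain, at 32.4 and 93.4 CPM in WT and at 8.97 and 70.4 CPM in KO. The highest library was WT replicate 2 and the lowest KO replicate 1 in all 3. The part of B lineage or antibody-secreting cells in the immunoglobulin values was not tested.

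Of 21 measured genes of immunoglobulin rearrangement and transcription, 1 fell and 0 rose. With a replicate term limma called 2 of them lower and 2 higher, against 5.02% and 6.64% of all genes. Pou2f2, the octamer factor OCT2 that binds immunoglobulin promoters, stood at 94.3 and 66.6 CPM in WT and at 33.6 and 22.9 CPM in KO, below WT in both libraries (log2 fold change -1.48 ± 0.24 SE, limma adjusted p = 0.0293). Dntt, which adds bases at the joints, stood at 569 and 300.0 CPM in WT and at 40.4 and 100.1 CPM in KO (log2 fold change -2.68 ± 0.63 SE, limma adjusted p = 0.175). Rag1, chosen after its values were seen, stood at 15.2 and 37.3 CPM in WT and at 1.96 and 33.0 CPM in KO, where KO replicate 1 was low. Tcf3 and Ikzf1, general lymphoid regulators, lay at log2 fold changes of 0.23 and 0.14, and neither passed.

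Lists of other cell types were counted in the same way. Of 9 measured plasmacytoid dendritic cell genes 3 fell (Siglech, Tcf4 and Ly6d, with log2 fold changes of -2.93, -0.85 and -1.85) and Cox6a2 rose, with one of 2.40 (limma); Siglech did not pass in edgeR (adjusted p = 0.0811). Tcf4 and Ly6d are expressed in B cell development too. The 8 neutrophil genes summed to 80.6 and 1730 CPM in WT and to 715 and 487 CPM in KO. By limma 0 neutrophil genes passed, with 0 at an unadjusted p under 0.05, and by edgeR 0. The 10 LSK genes summed to 1773 and 1006 CPM in WT and to 1035 and 673 CPM in KO. Of these, 0 were called by limma, 2 were at an unadjusted p under 0.05 (3171 of all 15255 genes were), and 0 were called by edgeR. With a replicate term limma called 4 of the LSK genes lower and 1 higher, against 5.02% and 6.64% of all genes. The authors' deposited table called Cd34, Flt3, Hlf and Meis1 lower, with FDRs of 1.25e-08, 3.83e-08, 0.000258 and 0.0193. The 9 T cell genes had 0 called by limma, 2 at an unadjusted p under 0.05 and 0 called by edgeR. With the replicate term the T cell list had 1 called higher and 0 lower, and the neutrophil list 0 in either direction. The plasmacytoid dendritic cell list had 4 lower and 1 higher with that term. The 5 T cell receptor segments of the table had 0 called by limma or edgeR and 0 at an unadjusted p under 0.05, with log2 fold changes from -0.45 to 0.72. The part of such cells in the immunoglobulin values was not tested.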

How the data were processed

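Poly(A) RNA was sequenced as single-end reads, per the labels. Per the submitters' processing notes, STAR 2.7.10a, featureCounts 2.0.1 and GRCm38.p6 were used. The annotation release, use of strand, and how reads spanning V, D, J and constant exons were assigned are not given in the sources used here.

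The deposited table gives each gene's normalised signal per library in CPM, scaled by the authors; edgeR's TMM factors returned the same values. Read numbers were recovered by dividing each column by the value of 1 read; 100% came out whole, to a tolerance of 0.01. The authors also deposited, per the file headers, log2 fold changes, a likelihood ratio score and p-values with FDR. An edgeR likelihood ratio refit with the replicate number as a term, the closest of several dispersion settings tried, differed by at most 3.63e-08 in log2 fold change. All 15255 genes passed edgeR's filterByExpr.

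The test was limma 3.58.1 (R 4.3.3) on log2(CPM + 1), with trend and robust moderation, two-sided, without a replicate term, and Benjamini-Hochberg adjustment over 15255 genes at 0.05. The columns do not sum to the total of a plain CPM, so they are a scaled signal; the planned test was kept. The pseudocount of 1 CPM shortens the log2 fold change of low genes. Alternatives used edgeR 4.0.16 (robust dispersion) and DESeq2 1.42.0 on recovered reads, another scaling, filter and pseudocount, a replicate block, and each library left out in turn. The fitting code was tested on simulated data. CPM per kb uses GENCODE M21 exon lengths; intervals and floors cover counting error only.

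The members, gene lists and named genes were chosen with earlier results of these data known. Named were all constant, D, J and lambda V genes, the 10 most abundant heavy and kappa V segments, and up to 10 members a direction passing limma with or without a replicate block. From each list, the called genes and some of the 4 most abundant were named. One list's result is not reported here.

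Of 184 members with at least 150 coding or exon bases, 15 share an exact stretch of 150 bases, the read length per the labels, with another annotated immunoglobulin gene; 68 share one of 100 bases, and 151 of 187 one of 50 bases, so reads of near-identical segments may be split or lost.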

Additional observations from a re-analysis of the deposited data

How the results depend on the processing

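Scaling by median of ratios, a filter of 1 CPM in both libraries of a group (13623 genes, 174 members) and a pseudocount of 0.1 CPM left 10 members called each time, the same 10. EdgeR called 7 members with robust dispersion and 2, Igkv4-80 and Iglc1, with the default, which also called 194 genes in all; the robust setting was taken up after the default count had been seen. DESeq2 called 1214 genes and 31 members, and gave no adjusted p for 11 other members. With a replicate block limma called 1779 genes and 51 members (44 lower, 7 higher), and edgeR 1789 genes and 45 members. The authors' comparison is named as paired, and the labels do not say what libraries of the same number share; the replicate differences of the 2 groups correlated at 0.268 across all genes and -0.143 across members. Ighj4 was at -0.065 in edgeR with either dispersion and -0.0629 in DESeq2. Leaving out 1 library at a time, genes called ran from 0 to 1068 and members from 0 to 40. In these fits the lone library of a group is assumed to vary like the other group. The ratio of KO to WT ran from 0.515 to 0.868 for heavy, 0.523 to 0.840 for kappa and 0.444 to 0.607 for lambda sums, and the median log2 fold change of the members from -1.02 to -0.04. Named members whose log2 fold change changed sign had ranges of -1.10 to 0.91 for Ighg3, -0.80 to 0.36 for Ighj2, -0.67 to 0.96 for Ighj4, -0.31 to 0.0233 for Ighm, -1.59 to 1.06 for Ighv1-55, -1.75 to 0.0788 for Ighv1-72, -0.81 to 0.86 for Ighv1-9, -0.66 to 1.19 for Ighv11-2, -0.0172 to 2.46 for Ighv5-16, -0.98 to 0.87 for Ighv9-3, -0.43 to 0.12 for Igkj2, -0.17 to 0.67 for Igkj3, -0.0127 to 0.49 for Igkj4, -0.379 to 0.83 for Igkv14-126, -0.54 to 0.97 for Igkv19-93, -0.12 to 1.60 for Igkv5-39 and -0.85 to 0.13 for Iglj1. The cause of these changes was not tested beyond the library left out. Segments with few reads and near copies limit what single V segments can show, and 2 libraries a group leave 2 residual degrees of freedom.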
